A study of Homo sapiens with 14 samples.

Results

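O-glycan initiation and chain extension were described through 34 genes, chosen by symbol as members of these enzyme families and not by a threshold on their values, among the 27819 genes shared by the 4 deposited count tables. The 34 members were 14 GALNT genes, 5 genes of the core enzymes, 5 B3GNT genes, 7 B4GALT genes and 3 B3GALT genes. RNA-seq was carried out on CWR22RV1 cells, an established human prostate cancer line, so all groups shared a single cell line and carried no engineered allele. Each treatment lasted 72 h. The vehicle control, DMSO, had 3 libraries, Fucotrim I at 30 μM had 3, Fucotrim II at 60 μM had 2, SGN-2FF at 100 μM had 3 and P-SiaFNEtoc at 2 μM had 3, which the study's methods describe as biological repeats. The remaining Fucotrim II repeat was not analysed here. The Fucotrims and SGN-2FF are metabolic inhibitors of fucosylation, and P-SiaFNEtoc is a metabolic inhibitor of sialyltransferases. In this cell line, fucose-lectin binding did not fall far enough with Fucotrim I for the study to determine an inhibitory concentration. The study also describes lower GDP-mannose levels with the Fucotrims. The same 3 DMSO libraries served as the control of every inhibitor, and the doses differed, so the inhibitors were set side by side and not tested against each other.

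Mucin-type O-glycans start in the Golgi when a GALNT enzyme moves N-acetylgalactosamine (GalNAc) from UDP-GalNAc to serine or threonine. C1GALT1 then adds galactose to make core 1, GCNT enzymes add a GlcNAc branch to make core 2, and alternating B3GNT and B4GALT enzymes build poly-N-acetyllactosamine chains on which fucose and sialic acid are placed as caps. Some members of these families have other substrates: B4GALT5 and B4GALT6 make lactosylceramide, B3GALT4 makes gangliosides, and B4GALT7 and B3GALT6 build the linkage region of proteoglycans. The comparisons addressed whether transcripts of the enzymes that build the chain changed in cells given inhibitors of fucose or sialic acid addition. The libraries carry no measure of the caps themselves.

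The libraries held between 12553094 and 19981453 counts on genes, and each member's level is given as CPM (the gene's counts scaled to a common library size) after scaling of all 14 libraries by the TMM method. The 34 members together took 0.11% to 0.136% of the counts of a library. The label of the cells was checked with 10 prostate luminal genes. Their levels added up to between 2595 and 3581 CPM. The 3 basal markers reached at most 0.455 CPM in sum and the 3 endothelial markers at most 0.251 CPM. Of the 5 leukocyte markers, 4 were under 1 CPM on average and CD68 was at 4.59 to 8.03 CPM. Of the 5 stromal markers, 3 were under 1 CPM on average and COL1A1 was at 15.9 to 29.2 CPM. The luminal genes moved with the treatments, with 8, 8, 8 and 7 of 10 called higher with Fucotrim I, Fucotrim II, SGN-2FF and P-SiaFNEtoc, beside 21.6%, 25.6%, 11.5% and 9.02% of all genes tested. TMPRSS2 and KLK3 led with Fucotrim I (log2 fold changes of 1.38 and 1.15), TMPRSS2 and KLK2 with Fucotrim II (1.41 and 0.81) and P-SiaFNEtoc (0.67 and 0.76), and KLK3 and KLK2 with SGN-2FF (1.32 and 1.27). Of the other markers, COL1A1 was called higher with Fucotrim II (log2 0.59) and CD68 with SGN-2FF (log2 0.46). The share of counts on the 13 mitochondrially encoded mRNAs also moved with them. It was 5.32% to 6.27% in DMSO, 7.85% to 12.8% with Fucotrim I, 15.1% and 10.8% with Fucotrim II, 7.26% to 7.70% with SGN-2FF and 5.40% to 6.07% with P-SiaFNEtoc. The part of both shifts in the changes described here was not tested.

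In DMSO, GALNT7 stood first among the members. Levels between genes were compared only as CPM per kilobase of annotated exon. The lengths are those of all GENCODE exons of a gene, and the annotation used in counting is not given. The order therefore depends on these lengths, an uncertainty that overlap between libraries does not measure. GALNT7, which prefers peptides that already carry GalNAc, was at 49.4 ± 1.76 CPM per kb (SD, n = 3), ahead of B4GALT2 at 25.5 ± 1.24 and B4GALT3 at 22.2 ± 0.124. B4GALT1, C1GALT1C1 and GALNT1 followed at 18.1, 17.7 and 17.3 CPM per kb, and the libraries of neighbours in that order overlapped. B3GALT6, GALNT11 and B4GALT5 lay at 12.5, 11.1 and 9.78 CPM per kb. GALNT3, GALNT10 and GALNT2 lay at 7.75, 7.23 and 6.64 CPM per kb, without overlap between neighbours. Before division by length, GALNT10 stood above GALNT3, at means of 75.9 and 35.6 CPM over 10496 and 4589 exon bases. B3GNT2, B3GNT3 and GCNT1 stood at 5.72, 4.60 and 4.06 CPM per kb. GALNT18, B4GALT7, B4GALT4 and C1GALT1 were at 3.79, 3.77, 3.14 and 2.57 CPM per kb, and their libraries overlapped with those of the next gene except for C1GALT1. C1GALT1, the core 1 synthase, was thus lower per kilobase than C1GALT1C1, its chaperone Cosmc, in each of the 3 DMSO libraries. B4GALT6, GALNT12 and GALNT16 closed the group of members with enough counts in every comparison, at 1.45, 1.03 and 0.257 CPM per kb.

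**Figure D1:**
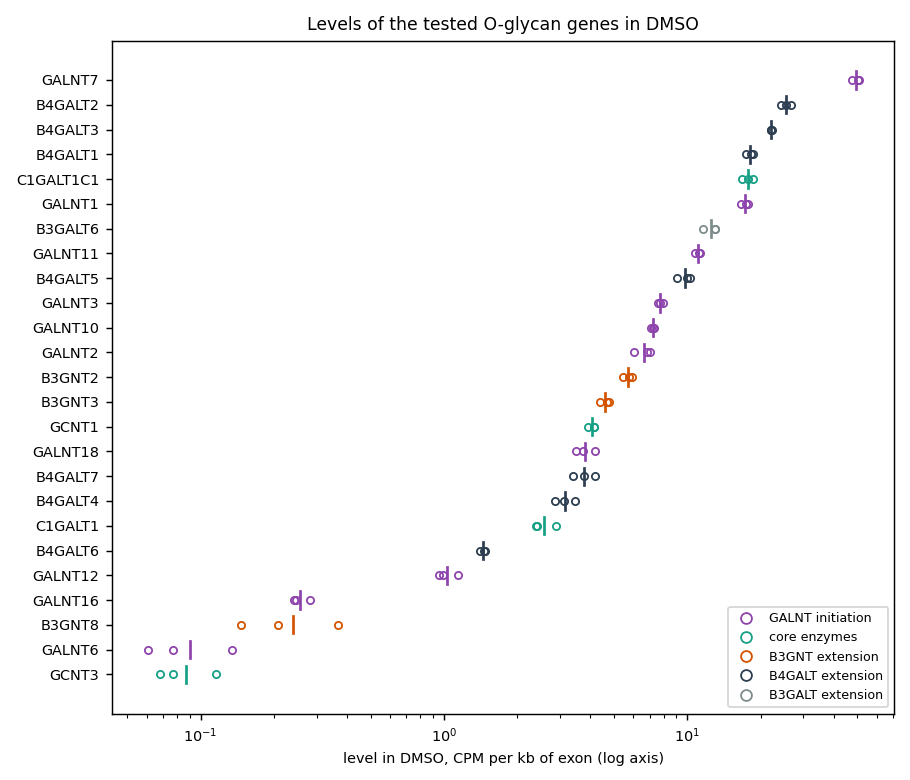
Level of each of the 25 members tested in at least 1 comparison in the 3 DMSO libraries, as CPM per kilobase of exon on a log axis, with circles for libraries, bars for means and colours for families. GALNT7 lies at the top at 49.4 CPM per kb, and GALNT6, GCNT3 and B3GNT8 lie lowest with GALNT16, all below 0.3.

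Too low to judge were 9 members, which the filter on low counts removed from every comparison. These were the initiating enzymes GALNT4, GALNT5, GALNT13 and GALNT14, the I-branching enzyme GCNT2, the lactotriaosylceramide synthase B3GNT5, the keratan sulfate enzyme B3GNT7, the ganglioside enzyme B3GALT4 and the type 1 chain enzyme B3GALT5. B3GNT7 and GCNT2 were at 2 to 12 and 3 to 12 counts per library, B3GNT5 at 0 to 7 counts and B3GALT5 at 0 to 11 counts. GALNT14 had counts only in Fucotrim II replicate 1. GALNT4 shares 93.4% of its exon bases with the readthrough gene POC1B-GALNT4 on the same strand, so that its reads could be divided between them. B3GALT4 was listed at 0 in all 14 libraries. Its neighbours within 50 kb were also at or near 0, among them RPS18, a ribosomal protein gene, with 8 counts in all 14 libraries together, so a listed 0 here says nothing of B3GALT4 itself. A further 3 members, GALNT6, GCNT3 and B3GNT8, passed the filter in some comparisons with a mean of 8.4 to 11.8 counts. None of the 3 was called, and their log2 fold changes had standard errors of 0.36 to 0.64. GALNT6 with Fucotrim II, for example, had a 95% interval from -1.90 to 0.47 on the log2 scale.

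The other 22 members were tested with all inhibitors in separate fits with edgeR's quasi-likelihood test, and a gene was called at a Benjamini-Hochberg adjusted p under 0.05 over all genes of that fit. With Fucotrim I, 4 of 22 tested members were called higher and 6 lower, where 21.6% of all genes tested were called higher and 22.1% lower. With Fucotrim II, 6 of 25 were higher and 7 lower, beside 25.6% and 25.7% of all genes. With SGN-2FF, 1 of 24 was higher and 2 were lower, beside 11.5% and 9.08%. With P-SiaFNEtoc, 4 of 24 were higher and 1 was lower, beside 9.02% and 7.33%. Each of these counts lay within 2 members of what the share of all genes gives. Libraries of the inhibitor and of DMSO did not overlap for 10, 14, 7 and 11 tested members with Fucotrim I, Fucotrim II, SGN-2FF and P-SiaFNEtoc, beside 52.6%, 67.7%, 36% and 33.7% of all genes. The median size of the members' log2 fold change was 0.17, 0.38, 0.09 and 0.12 in that order, and that of all genes was 0.21, 0.33, 0.12 and 0.11. Pooled over the 34 members, the shares called were thus near the background. Single families, with fewer tested members each, were not compared with the background. The values that follow describe which enzymes moved. In bulk RNA, a lower level in every cell and fewer cells with the transcript cannot be told apart.

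In all, 31 of 95 tests gave a call, and 15 members were called at least once. C1GALT1 was called lower and B3GNT3 higher with each of the 4 inhibitors. GALNT3 was the only member called in both directions. With the Fucotrims, 9 members were called in the same direction with both and 0 in opposite directions. Both comparisons share the DMSO libraries, and the matching share of all genes was not counted. The agreement is therefore not read as a result about the members. The 7 members tested throughout and called with no inhibitor were GALNT11, GALNT18, C1GALT1C1, B4GALT2, B4GALT4, B4GALT5 and B3GALT6. The largest change among calls was 1.11 on the log2 scale and the median size was 0.39.

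**Figure D2:**
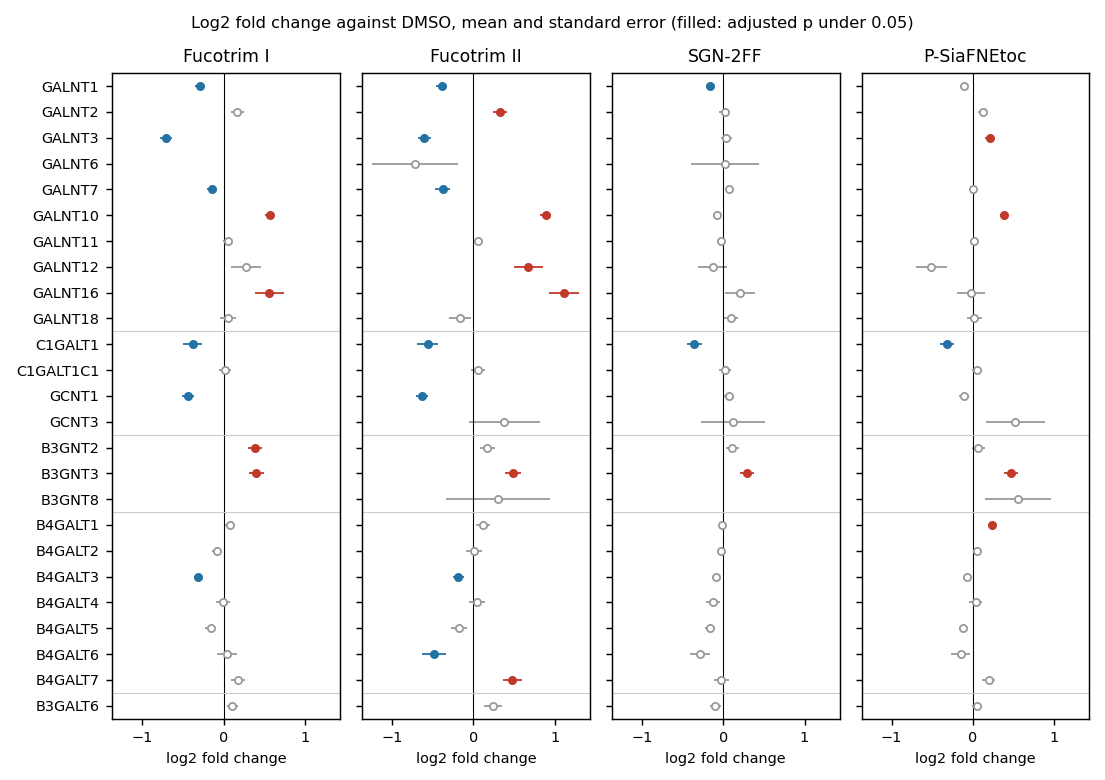
Log2 fold change against DMSO of the 25 tested members with each inhibitor, as points with standard errors on a common axis, filled where the adjusted p was under 0.05 (red higher, blue lower) and with lines between families. GALNT10 lies to the right with the Fucotrims and P-SiaFNEtoc, GALNT3 and GCNT1 lie to the left with the Fucotrims, and C1GALT1 is left and B3GNT3 right in every panel.

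Since C1GALT1 and B3GNT3 were called with every inhibitor and GALNT10 with 3 of them, the 250 bases upstream of their RefSeq start sites are printed on the gene's plus strand, from GRCh38.p14, with each copy of the GC box GGGCGG or its complement CCGCCC in capitals. All 3 genes lie on the plus strand. The windows are chr5:154190483-154190732 for GALNT10, chr19:17794888-17795137 for B3GNT3 and chr7:7182294-7182543 for C1GALT1. The RefSeq starts differ from the outermost starts in the GENCODE annotation, so the B3GNT3 and C1GALT1 windows lie inside the annotated spans of their genes, and the last 3 bases of the GALNT10 window do too.
GALNT10: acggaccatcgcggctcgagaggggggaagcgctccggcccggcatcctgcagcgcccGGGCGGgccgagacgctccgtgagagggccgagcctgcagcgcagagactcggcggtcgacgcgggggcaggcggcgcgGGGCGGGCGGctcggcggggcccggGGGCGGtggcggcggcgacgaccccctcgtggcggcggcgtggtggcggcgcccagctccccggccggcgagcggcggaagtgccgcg
B3GNT3: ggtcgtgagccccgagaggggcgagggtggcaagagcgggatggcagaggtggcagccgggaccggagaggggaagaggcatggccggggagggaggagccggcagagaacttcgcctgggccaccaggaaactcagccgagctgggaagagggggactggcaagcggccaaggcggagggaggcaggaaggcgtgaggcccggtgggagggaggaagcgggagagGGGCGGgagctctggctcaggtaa
C1GALT1: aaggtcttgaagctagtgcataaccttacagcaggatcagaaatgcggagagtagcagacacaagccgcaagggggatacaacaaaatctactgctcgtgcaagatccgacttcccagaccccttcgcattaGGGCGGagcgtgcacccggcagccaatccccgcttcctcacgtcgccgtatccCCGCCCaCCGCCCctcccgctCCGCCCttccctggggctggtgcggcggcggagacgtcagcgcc
Capitals hold 4 copies of the GC box in GALNT10, of which 2 overlap each other, 1 in B3GNT3 and 4 in C1GALT1. Over both strands, 20 of the 28 members with a RefSeq promoter had a GC box in this window, beside 42.3% of 27305 promoters. The E-box CACGTG was in 2 of 28 members and in 6.49% of promoters, and the cyclic AMP response element TGACGTCA was in 0 members and 1.77% of promoters. The 3 printed windows held 0 copies of the E-box and 0 of the cyclic AMP response element. The matches describe the letters of the windows alone, and binding was not measured.

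Among the initiating enzymes, GALNT10 rose and GALNT3 and GALNT1 fell with both Fucotrims. GALNT10 (chr5:154190730-154420984), which like GALNT7 prefers substrates that already carry GalNAc, was at 74.7, 76.2 and 76.9 CPM in DMSO. It was at 121, 109 and 107 CPM with Fucotrim I, 133 and 149 CPM with Fucotrim II, 74.2, 70.0 and 69.7 CPM with SGN-2FF, and 104, 100 and 90.6 CPM with P-SiaFNEtoc. Every library of the Fucotrims and of P-SiaFNEtoc lay above every DMSO library, and the SGN-2FF libraries lay just below. GALNT10 was 1.48-fold higher with Fucotrim I (log2 0.57 ± 0.06 SE, edgeR adjusted p = 1.94e-07) and 1.86-fold higher with Fucotrim II (log2 0.89 ± 0.07, adjusted p = 1.8e-05). With P-SiaFNEtoc it was 1.30-fold higher (log2 0.38 ± 0.05, edgeR adjusted p = 2.32e-06). With SGN-2FF the interval of the log2 fold change ran from -0.18 to 0.02 (edgeR adjusted p = 0.263).

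GALNT3 (chr2:165747588-165794659), known for glycosylation of the phosphate-regulating hormone FGF23, was at 34.7, 35.5 and 36.6 CPM in DMSO. It was at 21.4, 22.6 and 20.9 CPM with Fucotrim I, 22.9 and 24.1 CPM with Fucotrim II, 32.8, 36.7 and 39.2 CPM with SGN-2FF, and 39.9, 43.1 and 39.9 CPM with P-SiaFNEtoc. The 5 Fucotrim libraries lay far below DMSO, the P-SiaFNEtoc libraries lay above it, and the SGN-2FF libraries straddled it. Levels dropped by 0.71 on the log2 scale with Fucotrim I (SE 0.07, edgeR adjusted p = 2.25e-07) and by 0.60 with Fucotrim II (SE 0.08, adjusted p = 0.000244). With P-SiaFNEtoc the log2 fold change was 0.21 ± 0.06 (edgeR adjusted p = 0.0148), and this call was lost without DMSO replicate 1 or P-SiaFNEtoc replicate 2, by the DESeq2 test and in 1 fit of all libraries (adjusted p up to 0.114 over the alternatives). With SGN-2FF the interval ran from -0.10 to 0.18.

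GALNT1 (chr18:35581117-35711834), a broadly expressed initiating enzyme, was at 89.2, 91.4 and 85.4 CPM in DMSO. It was at 74.0, 74.8 and 67.4 CPM with Fucotrim I, 68.1 and 67.6 CPM with Fucotrim II, 75.1, 79.5 and 81.7 CPM with SGN-2FF, and 84.7, 79.0 and 81.9 CPM with P-SiaFNEtoc. All treated libraries lay below all DMSO libraries, by the widest margin with Fucotrim II. Log2 fold changes were -0.29 ± 0.06 with Fucotrim I (edgeR adjusted p = 0.00041), -0.39 ± 0.07 with Fucotrim II (adjusted p = 0.000941) and -0.16 ± 0.05 with SGN-2FF (adjusted p = 0.0213). The SGN-2FF call was lost when DMSO replicate 1 or 2 or SGN-2FF replicate 1 or 2 was left out (edgeR adjusted p up to 0.122), and P-SiaFNEtoc gave -0.11 ± 0.05 (adjusted p = 0.108).

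GALNT7 (chr4:173168811-173323967) was at 341, 345 and 323 CPM in DMSO, 283, 324 and 303 CPM with Fucotrim I, and 287 and 232 CPM with Fucotrim II. The Fucotrim I libraries overlapped with DMSO by a single library, and both Fucotrim II libraries lay below. It fell with Fucotrim II (log2 -0.38 ± 0.09, edgeR adjusted p = 0.00654), with a log2 fold change of -0.24 without Fucotrim II replicate 2 and -0.542 without replicate 1. The Fucotrim I call (log2 -0.15 ± 0.05, edgeR adjusted p = 0.0291) was lost without DMSO replicate 1 or 2 or without Fucotrim I replicate 1 or 3, and in 1 fit of all libraries, with an adjusted p up to 0.143. GALNT7 was at 339 to 373 CPM with SGN-2FF and 333 to 339 CPM with P-SiaFNEtoc, both overlapping DMSO. The log2 interval was -0.005 to 0.16 with SGN-2FF and -0.08 to 0.08 with P-SiaFNEtoc.

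GALNT2, the second broadly expressed initiating enzyme, was at 54.1, 46.7 and 52.8 CPM in DMSO and at 60 and 69.1 CPM with Fucotrim II. It rose with Fucotrim II (log2 0.33 ± 0.09, edgeR adjusted p = 0.0119), but not without DMSO replicate 2 (adjusted p = 0.0639), and its log2 fold change was 0.217 without Fucotrim II replicate 2. Its other log2 fold changes were 0.17, 0.02 and 0.12 with Fucotrim I, SGN-2FF and P-SiaFNEtoc. GALNT16 and GALNT12 rose from a low base. GALNT16 was at 3.24, 2.78 and 2.82 CPM in DMSO, 4.59, 4.86 and 3.52 CPM with Fucotrim I and 5.35 and 7.47 CPM with Fucotrim II. Its libraries did not overlap with DMSO in either case, and its log2 fold change of 1.11 ± 0.19 with Fucotrim II was the largest of all members called (edgeR adjusted p = 0.00106). With Fucotrim I it was 0.56 ± 0.18 (edgeR adjusted p = 0.016), which was lost without DMSO replicate 2 or 3 or Fucotrim I replicate 2 (adjusted p up to 0.0806) and by the DESeq2 test. GALNT12 was at 3.02, 3.61 and 3.13 CPM in DMSO and 5.77 and 4.69 CPM with Fucotrim II, a log2 fold change of 0.68 ± 0.18 (edgeR adjusted p = 0.0106) that was lost without Fucotrim II replicate 1 (adjusted p = 0.0514). With P-SiaFNEtoc, GALNT12 was at 2.55, 1.77 and 2.46 CPM, below every DMSO library, with a log2 fold change of -0.51 ± 0.19 that missed the threshold (edgeR adjusted p = 0.0607). On the opposite strand, other annotated genes cover 13.3% of the exon bases of GALNT2 and 20.9% of those of GALNT12, and the strand setting of the counting was not given in the sources used here.

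GALNT11, which glycosylates receptors of the LDL receptor family, was at 89.2 to 93.1 CPM in DMSO and 88.1 to 99.6 CPM in treated libraries. Its log2 fold changes lay between -0.03 and 0.06, and the widest interval, with Fucotrim II, ran from -0.09 to 0.20. GALNT18 was at 12.6 to 15.2 CPM in DMSO and 10.8 to 15.3 CPM in treated libraries, which overlapped with all inhibitors. Its interval with Fucotrim II, from -0.46 to 0.15, leaves room for changes as large as those of GALNT1. The summed level of the 14 GALNT genes was 700 ± 14.9 CPM in DMSO (SD, n = 3), 685 ± 18.5 CPM with Fucotrim I, 677 ± 13.8 CPM with Fucotrim II (n = 2), 701 ± 15 CPM with SGN-2FF and 725 ± 8.63 CPM with P-SiaFNEtoc. GALNT7 alone gave a mean of 336 CPM of the sum in DMSO, so the sum weighs this gene most. The P-SiaFNEtoc sums, 715 to 732 CPM, lay above those of DMSO, 683 to 709 CPM, while the sums with the other inhibitors overlapped with DMSO.

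**Figure D3:**
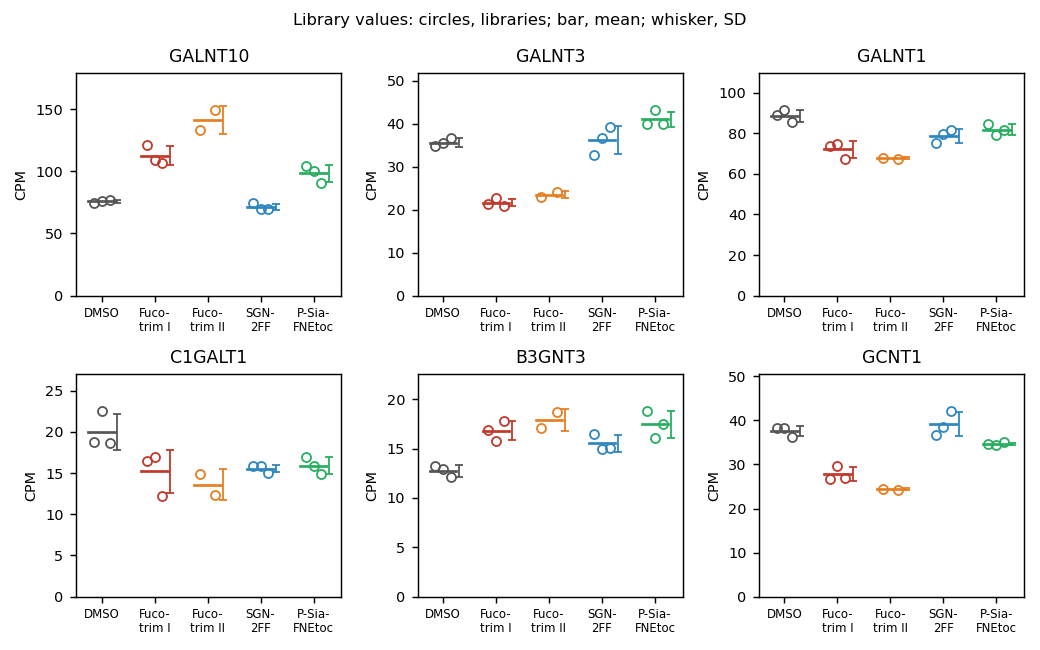
CPM in each library (circles) with the mean (bar) and SD (whisker) of each group, for GALNT10, GALNT3, GALNT1, C1GALT1, B3GNT3 and GCNT1, on axes that start at 0. GALNT10 is higher and GALNT3 and GCNT1 are lower in all 5 Fucotrim libraries than in any DMSO library, and C1GALT1 is lower and B3GNT3 higher in all 11 treated libraries.

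The core enzymes fell or were not called. C1GALT1 (chr7:7156934-7248616) was at 18.8, 22.5 and 18.6 CPM in DMSO. It was at 16.4, 17.0 and 12.2 CPM with Fucotrim I, 14.9 and 12.3 CPM with Fucotrim II, 15.8, 15.8 and 15 CPM with SGN-2FF, and 17.0, 15.8 and 14.9 CPM with P-SiaFNEtoc. Every treated library lay below every DMSO library, and DMSO replicate 2 stood above the other DMSO libraries. The log2 fold change was -0.38 ± 0.11 with Fucotrim I (edgeR adjusted p = 0.0094), -0.56 ± 0.13 with Fucotrim II (adjusted p = 0.00498), -0.35 ± 0.09 with SGN-2FF (adjusted p = 0.00444) and -0.32 ± 0.09 with P-SiaFNEtoc (adjusted p = 0.00898). The Fucotrim II and SGN-2FF calls held whichever library was left out. Without DMSO replicate 2 the Fucotrim I and P-SiaFNEtoc calls were lost, as they were without Fucotrim I replicate 3 and without P-SiaFNEtoc replicate 3, with edgeR adjusted p-values up to 0.0839 and 0.0871, and the P-SiaFNEtoc call was also lost in 1 fit of all libraries. The Fucotrim I log2 fold change was -0.251 without Fucotrim I replicate 3. The 4 comparisons share DMSO replicate 2, so they are not independent of each other.

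C1GALT1C1, the chaperone that C1GALT1 needs to fold, was called with no inhibitor. It was at 33.7, 32.1 and 30.2 CPM in DMSO and 28.8 to 36.8 CPM in treated libraries, which overlapped with all inhibitors. Its log2 fold changes were 0.02, 0.06, 0.02 and 0.05 with Fucotrim I, Fucotrim II, SGN-2FF and P-SiaFNEtoc, and the lower ends of the intervals were -0.13, -0.14, -0.14 and -0.07.

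GCNT1 (chr9:76419850-76651203), the core 2 branching enzyme, was at 38.2, 38.3 and 36.2 CPM in DMSO. It was at 26.8, 29.6 and 26.9 CPM with Fucotrim I, 24.5 and 24.2 CPM with Fucotrim II, 36.7, 38.6 and 42.1 CPM with SGN-2FF, and 34.6, 34.5 and 35 CPM with P-SiaFNEtoc. The Fucotrim libraries were all lower, the P-SiaFNEtoc libraries were slightly lower than DMSO without overlap, and the SGN-2FF libraries overlapped with DMSO. GCNT1 was at 0.74 times its DMSO level with Fucotrim I (log2 -0.43 ± 0.07, edgeR adjusted p = 6.47e-05) and at 0.645 times with Fucotrim II (log2 -0.63 ± 0.08, adjusted p = 0.00018), and both calls held under every alternative tried. With P-SiaFNEtoc the log2 interval was -0.23 to 0.007 (edgeR adjusted p = 0.193), and with SGN-2FF it was -0.06 to 0.20. The summed level of the 5 core genes was 90.4 ± 3.91 CPM in DMSO (SD, n = 3), 76.2 ± 3.89 CPM with Fucotrim I and 72.6 ± 5.18 CPM with Fucotrim II (n = 2), with no overlap. It was 87.9 ± 6.61 CPM with SGN-2FF, overlapping DMSO, and 85.1 ± 1.07 CPM with P-SiaFNEtoc, where the sums of 83.9 to 85.8 CPM lay just below those of DMSO at 86.2 to 93.8 CPM. This sum is nearly that of C1GALT1, C1GALT1C1 and GCNT1, as GCNT2 and GCNT3 were at 0.347 and 0.564 CPM in DMSO.

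The GlcNAc-adding extension enzymes with enough counts rose or were not called. B3GNT3 (chr19:17794828-17813576), the enzyme that extends core 1, was at 13.2, 12.9 and 12.1 CPM in DMSO. It was at 16.9, 15.8 and 17.8 CPM with Fucotrim I, 17.1 and 18.7 CPM with Fucotrim II, 16.5, 15 and 15.1 CPM with SGN-2FF, and 18.8, 16.1 and 17.5 CPM with P-SiaFNEtoc. All 11 treated libraries lay above all DMSO libraries. The log2 fold change was 0.40 ± 0.10 with Fucotrim I (edgeR adjusted p = 0.0019), 0.49 ± 0.10 with Fucotrim II (adjusted p = 0.00285), 0.29 ± 0.09 with SGN-2FF (adjusted p = 0.0187) and 0.46 ± 0.09 with P-SiaFNEtoc (adjusted p = 0.000345). The SGN-2FF call was lost without DMSO replicate 3 or SGN-2FF replicate 1 (edgeR adjusted p up to 0.0972) and by the DESeq2 test, and the other calls held under every alternative tried.

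B3GNT2, the main poly-N-acetyllactosamine enzyme, was at 16.4, 15.6 and 17.0 CPM in DMSO and 19.7, 23.3 and 20.8 CPM with Fucotrim I. The groups did not overlap, and B3GNT2 rose by 0.39 ± 0.09 on the log2 scale (edgeR adjusted p = 0.00168). With Fucotrim II it was at 18.4 and 18.6 CPM, above all DMSO libraries but short of the threshold, with a log2 interval of -0.04 to 0.38 (edgeR adjusted p = 0.148). The log2 fold change was 0.11 ± 0.08 with SGN-2FF and 0.07 ± 0.08 with P-SiaFNEtoc. The 5 B3GNT genes added up to 30.1 ± 0.474 CPM in DMSO (SD, n = 3), 39.5 ± 1.80 CPM with Fucotrim I, 37.9 ± 1.69 CPM with Fucotrim II (n = 2), 34.3 ± 1.35 CPM with SGN-2FF and 35.4 ± 2.37 CPM with P-SiaFNEtoc, and no treated library overlapped with DMSO. The sum is nearly that of B3GNT2 and B3GNT3, as B3GNT5, B3GNT7 and B3GNT8 were at 0.158, 0.368 and 0.451 CPM in DMSO. With P-SiaFNEtoc, mean B3GNT3 went from 12.7 to 17.5 CPM and mean B3GNT2 from 16.4 to 17.0 CPM. Sums of other gene sets were not counted for overlap, so this is not read as a result about the family.

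Among the galactose-adding B4GALT genes, B4GALT1 rose with P-SiaFNEtoc and B4GALT3 fell with Fucotrim I. B4GALT1, the galactosyltransferase that also makes lactose in the mammary gland, was at 89.7, 85.6 and 90.9 CPM in DMSO and 102, 107 and 103 CPM with P-SiaFNEtoc. The groups did not overlap, and the log2 fold change was 0.23 ± 0.04 (edgeR adjusted p = 0.000571). The Fucotrim and SGN-2FF libraries, at 85.4 to 107 CPM, overlapped with DMSO. B4GALT3 was at 85.9, 85.9 and 86.7 CPM in DMSO, 71.2, 67.4 and 68.9 CPM with Fucotrim I and 71.6 and 80.4 CPM with Fucotrim II. It fell with Fucotrim I (log2 -0.31 ± 0.05, edgeR adjusted p = 0.000111). The Fucotrim II call (log2 -0.19 ± 0.07, edgeR adjusted p = 0.0476) lay at the threshold and was lost under 10 of the 14 alternatives, with an adjusted p up to 0.31 and a log2 fold change of -0.105 without Fucotrim II replicate 1. PPOX covers 28.7% of the exon bases of B4GALT3 on the opposite strand.

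B4GALT2, the highest of the family in DMSO, was called with no inhibitor but split the Fucotrim II libraries. It was at 146, 133 and 139 CPM in DMSO and at 123 and 159 CPM in Fucotrim II replicates 1 and 2, one below and one above all DMSO libraries. B3GALT6 (36.4 and 46.9 CPM), B4GALT1 (86.3 and 107 CPM) and B4GALT5 (36.5 and 45.2 CPM) were also lower in replicate 1 than in replicate 2, and GALNT7 (287 and 232 CPM) was higher. B4GALT6, a lactosylceramide synthase, was at 7.59, 7.56 and 7.27 CPM in DMSO and 5.95 and 4.81 CPM with Fucotrim II. Its log2 fold change was -0.48 ± 0.15 (edgeR adjusted p = 0.0205), which was lost without DMSO replicate 1 or 2, without Fucotrim II replicate 2 (adjusted p up to 0.0969), with the replicate block and by the DESeq2 test. With SGN-2FF, B4GALT6 was at 5.83, 6.30 and 6.08 CPM, below all DMSO libraries, and missed the threshold (log2 -0.29 ± 0.12, edgeR adjusted p = 0.0966). B4GALT5, the other lactosylceramide synthase, had log2 fold changes of -0.16, -0.18, -0.16 and -0.12 with Fucotrim I, Fucotrim II, SGN-2FF and P-SiaFNEtoc, none of them called (lowest edgeR adjusted p = 0.0551).

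Of the linkage region enzymes of proteoglycans, B4GALT7 was called and B3GALT6 was not, and the difference between them was not tested. B4GALT7, which adds the first galactose of the linkage, was at 18.4, 16.6 and 20.3 CPM in DMSO and 23.0 and 28.3 CPM with Fucotrim II, with no overlap. It rose by 0.48 ± 0.12 on the log2 scale (edgeR adjusted p = 0.00768), or by 0.314 without Fucotrim II replicate 2, while its interval with Fucotrim I was -0.01 to 0.37 and with P-SiaFNEtoc 0.03 to 0.36 before adjustment (adjusted p = 0.123 and 0.0881). B3GALT6, which adds the second galactose, was at 36.4, 32.5 and 36.4 CPM in DMSO and 30.4 to 46.9 CPM in treated libraries. It was called with no inhibitor, and its widest log2 interval, with Fucotrim II, was -0.003 to 0.49. B4GALT4, which acts in keratan sulfate, was at 19.9 to 24.1 CPM in DMSO and 17.9 to 23.9 CPM in treated libraries, with log2 fold changes of -0.12 to 0.05. The 7 B4GALT genes added up to 408 ± 15.3 CPM in DMSO (SD, n = 3), 385 ± 17.3 CPM with Fucotrim I, 370 and 446 CPM with Fucotrim II, 389 ± 9.17 CPM with SGN-2FF and 423 ± 9.47 CPM with P-SiaFNEtoc.

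The enzymes and transporters that supply UDP-sugars to these transferases were measured in all comparisons. Of 18 supply genes, 4 were called higher and 6 lower with Fucotrim I, 7 and 5 with Fucotrim II, 4 and 3 with SGN-2FF, and 2 and 2 with P-SiaFNEtoc. Over all genes tested, 21.6% were called higher and 22.1% lower with Fucotrim I, 25.6% and 25.7% with Fucotrim II, 11.5% and 9.08% with SGN-2FF, and 9.02% and 7.33% with P-SiaFNEtoc. Their median log2 fold change was 0.10, 0.16, -0.005 and 0.03 in that order, and that of all genes was 0.001, 0.008, 0.004 and 0.000. Called lower with Fucotrim I were GFPT1, PGM3, UGP2, SLC35A3, SLC35B4 and SLC35D1. Those lower with Fucotrim II were GNPNAT1, UGP2, SLC35A3, SLC35B4 and SLC35D1. The PGM3 call was lost under 5 of the 14 alternatives, and the GNPNAT1 call with the replicate block. The Leloir pathway genes GALT and GALK1, which pass galactose on to UDP-galactose, rose with both Fucotrims. GALT changed by 0.59 ± 0.07 and 0.74 ± 0.09 on the log2 scale (edgeR adjusted p = 2.46e-06 and 0.000153), and GALK1 by 0.47 ± 0.09 and 0.76 ± 0.11 (adjusted p = 0.000161 and 0.000413). With SGN-2FF, GALT changed by 0.27 ± 0.07 (edgeR adjusted p = 0.00716), which was lost without DMSO replicate 1 or SGN-2FF replicate 2. UAP1L1, a paralogue of the enzyme that makes UDP-GlcNAc, rose by 0.59 ± 0.07 with Fucotrim I and 0.84 ± 0.09 with Fucotrim II (edgeR adjusted p = 1.38e-06 and 7.81e-05). With SGN-2FF it was called at 0.23 ± 0.06 (edgeR adjusted p = 0.00682), which was lost without DMSO replicate 1 or SGN-2FF replicate 2 and in 1 fit of all libraries. UAP1, which makes UDP-GlcNAc itself, was called higher with SGN-2FF (log2 0.23 ± 0.05, edgeR adjusted p = 0.00122) and P-SiaFNEtoc (log2 0.19 ± 0.05, adjusted p = 0.00666). SLC35B4, a Golgi UDP-sugar transporter, was the supply gene called lower with all 4 inhibitors, at log2 fold changes of -0.28, -0.46, -0.18 and -0.20 (edgeR adjusted p = 0.00315, 0.00132, 0.0247 and 0.0231). Its SGN-2FF call was lost without DMSO replicate 1 or SGN-2FF replicate 2 or 3, and its P-SiaFNEtoc call without DMSO replicate 1 or P-SiaFNEtoc replicate 3, and both were lost by the DESeq2 test and in 1 fit of all libraries (edgeR adjusted p up to 0.0929 and 0.132 over the alternatives). SLC35A2, the Golgi UDP-galactose transporter, was called only with Fucotrim II, at a log2 fold change of 0.37 ± 0.07 (edgeR adjusted p = 0.00255).

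Of 16 mucin genes, which encode the main carriers of these glycans, 11 were too low in every comparison, and 4 or 5 were tested with each inhibitor. Of those tested, 2 of 4 were called higher and 1 lower with Fucotrim I, 3 of 5 higher with Fucotrim II, 3 of 4 higher with SGN-2FF and 3 of 4 higher with P-SiaFNEtoc, where the shares of all genes were those given for the supply genes. MUC13, a transmembrane mucin, was at 93.5, 81.4 and 80.4 CPM in DMSO. It was at 119, 111 and 125 CPM with Fucotrim I, 171 and 174 CPM with Fucotrim II, 117, 107 and 107 CPM with SGN-2FF and 118, 120 and 127 CPM with P-SiaFNEtoc. All treated libraries lay above DMSO, the Fucotrim II libraries highest. Log2 fold changes were 0.48 ± 0.06, 1.02 ± 0.08, 0.38 ± 0.05 and 0.51 ± 0.05 in that order (edgeR adjusted p = 5.79e-06, 1.71e-05, 1.53e-05 and 1.72e-08), and the calls held under every alternative tried. MUC5AC, a gel-forming mucin, was at 3.41, 3.56 and 3.51 CPM in DMSO and 4.62 to 7.64 CPM in treated libraries, with no overlap. It was called higher with all 4 inhibitors, at log2 fold changes of 0.95, 1.02, 0.53 and 0.58 (edgeR adjusted p = 3.61e-05, 0.000455, 0.0144 and 0.00667). The SGN-2FF call was lost without SGN-2FF replicate 2 and the P-SiaFNEtoc call without P-SiaFNEtoc replicate 1 (edgeR adjusted p up to 0.0782 and 0.0563). MUC1, at 2.09, 2.00 and 1.94 CPM in DMSO, was at 4.63 and 4.07 CPM with Fucotrim II (log2 1.10 ± 0.19, edgeR adjusted p = 0.00106). It was also called higher with SGN-2FF (log2 0.67 ± 0.20, edgeR adjusted p = 0.0175), but not without DMSO replicate 3 or SGN-2FF replicate 3 or by the DESeq2 test. MUC3A, a low transmembrane mucin at 2.03, 1.61 and 1.44 CPM in DMSO, went both ways. It was at 0.645, 0.54 and 1.34 CPM with Fucotrim I (log2 -1.05 ± 0.33, edgeR adjusted p = 0.0129) and at 2.55, 3.15 and 3.09 CPM with P-SiaFNEtoc (log2 0.77 ± 0.20, adjusted p = 0.00939). The Fucotrim I call was lost without DMSO replicate 1 or Fucotrim I replicate 2 and by the DESeq2 test, and the P-SiaFNEtoc call without DMSO replicate 3 (edgeR adjusted p up to 0.0795 and 0.053).

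**Figure D4:**
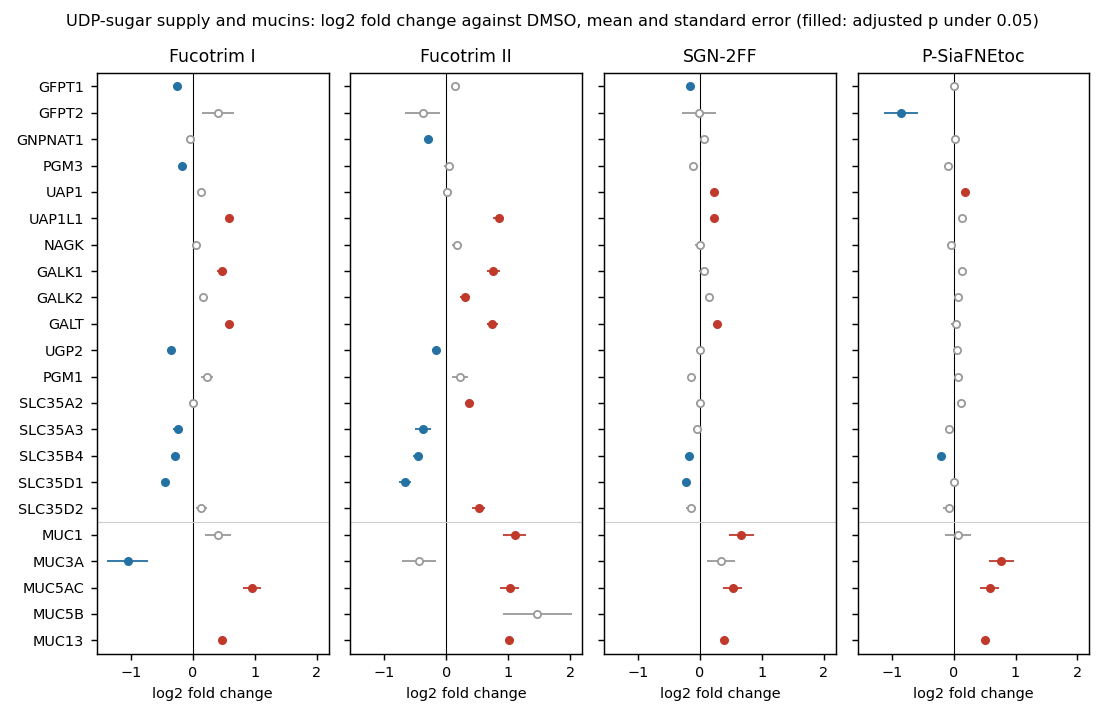
Log2 fold change against DMSO of 17 UDP-sugar supply genes (above the line) and 5 mucins (below it), as points with standard errors on a common axis, filled where the adjusted p was under 0.05 (red higher, blue lower). MUC5AC and MUC13 are red and SLC35B4 is blue in every panel, and MUC5B was tested with Fucotrim II alone.

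Of 18 further genes of the same transferase families, 12 were too low in every comparison and 6 were tested throughout. Of these 6, 2 were called higher and 1 lower with Fucotrim II, 1 lower with SGN-2FF and 0 with Fucotrim I or P-SiaFNEtoc. Of all genes tested, 25.6% were higher and 25.7% lower with Fucotrim II, and 11.5% and 9.08% with SGN-2FF. The shares were 21.6% and 22.1% with Fucotrim I and 9.02% and 7.33% with P-SiaFNEtoc. The log2 fold change was 0.51 ± 0.17 for B3GNT9 and -0.25 ± 0.07 for B3GALNT2 with Fucotrim II (edgeR adjusted p = 0.0333 and 0.0106), and -0.25 ± 0.09 for B3GALNT1 with SGN-2FF (adjusted p = 0.0366). The B3GNT9 call was lost without any 1 of the DMSO libraries, without Fucotrim II replicate 1, with the replicate block and by the DESeq2 test (edgeR adjusted p up to 0.218), with a log2 fold change between 0.313 and 0.678 as 1 library was left out. The B3GALNT1 call was lost without DMSO replicate 1 or 3 or SGN-2FF replicate 1 or 2, by the DESeq2 test and in 1 fit of all libraries (up to 0.169), and the B3GALNT2 call with the replicate block (edgeR adjusted p = 0.114). Among 9 other proteoglycan linkage genes, 8 were tested. With Fucotrim I, 1 was called higher and 1 lower, 3 were higher and 1 lower with Fucotrim II, 0 were higher and 2 lower with SGN-2FF, and 1 was higher and 2 lower with P-SiaFNEtoc. For comparison, 21.6% of all genes were higher and 22.1% lower with Fucotrim I, 25.6% and 25.7% with Fucotrim II, 11.5% and 9.08% with SGN-2FF and 9.02% and 7.33% with P-SiaFNEtoc. FAM20B, the xylose kinase of the linkage region, was called lower with all 4 inhibitors, at log2 fold changes of -0.25, -0.46, -0.21 and -0.12. The P-SiaFNEtoc call (edgeR adjusted p = 0.0444) was lost when any of 5 of the 6 libraries was left out, by the DESeq2 test and in 1 fit of all libraries. B3GAT3, which completes the linkage with glucuronic acid, rose with the Fucotrims by 0.40 ± 0.07 and 0.68 ± 0.08 (edgeR adjusted p = 0.000111 and 0.000193). Of the other genes called, EXTL3, which starts heparan sulfate chains, had a log2 fold change of -0.20 ± 0.05 with SGN-2FF (edgeR adjusted p = 0.00492), which was lost in 1 fit of all libraries (0.107). The chondroitin sulfate enzymes CSGALNACT1 and CSGALNACT2 had 0.37 ± 0.12 and -0.26 ± 0.08 with P-SiaFNEtoc (edgeR adjusted p = 0.0285 and 0.0324), and CSGALNACT2 had 0.46 ± 0.11 with Fucotrim II (adjusted p = 0.00717), between 0.314 and 0.593 as 1 library was left out. Both P-SiaFNEtoc calls were lost under 8 of the 14 alternatives, among them leaving out any P-SiaFNEtoc library (edgeR adjusted p up to 0.111 and 0.154).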

How the data were processed

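Stranded mRNA libraries were sequenced by the authors as single reads. Trimming was by Cutadapt, alignment to hg38 by HISAT2 and counting by featureCounts. The authors deposited counts as whole numbers that were not normalized, and a separate table holds each inhibitor beside the DMSO libraries. The annotation and strand setting of the counting are not given in the sources used here. The table for SGN-2FF lists gene numbers, which were matched to the symbols of the other tables.

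Each inhibitor was fitted alone with DMSO in R 4.3.3 with edgeR 4.0.16 (filterByExpr with minimum count 10 and minimum total 15, TMM scaling, robust quasi-likelihood test), which was tested on simulated data first. Adjusted p-values are Benjamini-Hochberg over all genes of a fit. Standard errors come from the fold change and its F statistic, and intervals are 95% and unadjusted. Displayed CPM come from 1 scaling of all libraries. Positions are from GENCODE for hg38. Alternatives used limma 3.58.1 and DESeq2 1.42.0, no filter, at least 10 counts in every library, an adjusted p under 0.01, 1 fit of all libraries, a replicate block and leaving out each library. Members and lists were chosen with earlier results of these data known. All 34 members are reported. From each other list, the 2 called genes with the largest log2 fold change per inhibitor, no overlap and a mean of at least 50 counts were named. Values of such genes with other inhibitors, SLC35A2, and MUC3A, which has lower counts, were given after their values were seen. The supply genes called lower with the Fucotrims were also named after their calls were seen. Certain items of the lists are counted but not reported here by name.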

Additional observations from a re-analysis of the deposited data

How the results depend on the processing

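Of the members' 31 calls, 20 held under every alternative and 11 were lost under at least 1. Counts of members called stayed within 1.5 times for the Fucotrims, but small counts moved with the other inhibitors. With SGN-2FF, 1 member higher became 0 by the DESeq2 test and 0 at an adjusted p under 0.01, and 0 to 1 with each library left out in turn, while 2 lower became 1 at an adjusted p under 0.01 and 1 to 2 with a library left out. With P-SiaFNEtoc, 1 lower became 2 with the replicate block, 0 in 1 fit of all libraries, and 0 to 1 with a library left out. B4GALT2 with Fucotrim II, not called, took opposite signs as either Fucotrim II library was left out, with a range of log2 fold changes from -0.189 to 0.181 (edgeR adjusted p = 0.0187 without replicate 2, where the lone library is assumed to vary like DMSO), and the cause was not tested. The alternatives for the lists of supply genes, mucins and linkage genes were added after seeing the data. None of the genes named there by the rule on size, overlap and counts reversed. Scaling by DESeq2's size factors moved the median of all genes by at most 0.0055 (log2).

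The correlations did not settle whether the replicate numbers pair treated libraries with DMSO libraries. Differently numbered libraries correlated at -0.295 to 0.129 with Fucotrim I, -0.206 to 0.251 with SGN-2FF and -0.126 to 0.124 with P-SiaFNEtoc. Deviations of same-numbered libraries correlated at 0.214, 0.257 and 0.025 with Fucotrim I, at 0.139, -0.067 and -0.159 with SGN-2FF and at -0.066, 0.087 and 0.021 with P-SiaFNEtoc. With Fucotrim II, same-numbered libraries correlated at -0.306 and -0.405 by the number in the titles and 0.405 and 0.164 by that in the library names. Over all genes, the block moved calls higher and lower from 3068 and 3141 to 3589 and 3699 with Fucotrim I. They went from 1647 and 1299 to 1643 and 1225 with SGN-2FF, and from 1286 and 1045 to 1459 and 1215 with P-SiaFNEtoc. With Fucotrim II they went from 3748 and 3763 to 2796 and 2504 by title, and to 3923 and 3856 by library name. Members called higher and lower were 5 and 7 with the block for Fucotrim I, 6 and 5 for Fucotrim II, 1 and 2 for SGN-2FF and 4 and 2 for P-SiaFNEtoc, and 7 and 7 for Fucotrim II with the block by library name. Precision is limited by low counts for most of the 12 members not tested throughout (B3GALT4 and GALNT4 have the limits given with their values), and by the pair of libraries for Fucotrim II.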
